A study of Mus musculus with 12 samples.

Results

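The TIR-domain adaptors, the IRAK kinases and TRAF6 carry the signal from toll-like receptors (TLRs) and the IL-1 receptor family into the cell, and their transcripts were followed here in periocular skin of filaggrin-deficient mice. The members were chosen by gene symbol and comprise 5 adaptors (*Myd88*, *Tirap*, *Ticam1*, *Ticam2* and *Sarm1*), 4 kinases (*Irak1*, *Irak2*, *Irak3* and *Irak4*) and the ubiquitin ligase *Traf6*. All 10 were among the 21247 genes of the count table, and all 10 passed the minimum of 10 counts summed over the libraries. RNA-seq of periocular skin biopsies gave 4 libraries labelled ft/ft and 4 labelled ft/ftMyD88-/-, all from BALB/c mice given as female and 6 weeks old. Both groups are filaggrin-deficient through a spontaneous point mutation of *Flg*, which encodes a barrier protein of cornified keratinocytes, in a line from which the matted (ma) mutation had been removed. The second group comes from an in-house cross with MyD88-deficient mice, in which no cell type was targeted selectively. The 4 WT samples of the series were not analysed here, and neither was a group lacking MyD88 alone. Every comparison is therefore between these groups as labelled, which also differ in sex-linked transcripts as described with *Irak1*. The study reports periocular inflammation in all ft/ftMyD88-/- mice by the age sampled, with a thicker epidermis, and no visible inflammation in ft/ft mice. Each difference below is thus also between skin reported as inflamed and skin without visible inflammation. The part of inflammation in these differences was not tested.

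A TLR or IL-1 receptor that binds its ligand recruits MyD88 through its TIR domain, in some cases with the bridging adaptor TIRAP (*Tirap*). MyD88 then gathers IRAK4, IRAK1 and IRAK2 into a complex that engages TRAF6 and leads to NF-kB and MAP kinase activation, while IRAK-M (*Irak3*) is known chiefly as a brake on this complex. TRIF (*Ticam1*) and its bridging adaptor TRAM (*Ticam2*) serve a second branch from TLR3 and TLR4 to interferon regulatory factors, and *Sarm1* encodes a TIR-domain NAD-cleaving enzyme best known from degenerating axons. In skin, keratinocytes and resident immune cells use these proteins to respond to bacteria and to IL-1.

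Some members share a short sequence that the choice of genes did not use. miR-146a, a microRNA induced by NF-kB, is known to act on *Irak1* and *Traf6*, and its mature sequence in RefSeq (GRCm38.p6, chr11:43374435-43374456, minus strand) is shown with the seed, bases 2 to 8, in capitals, above 2 target windows of 22 bases from each of *Irak1* and *Traf6* in which capitals mark the letters that pair with the seed.
mmu-miR-146a-5p: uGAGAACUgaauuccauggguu
Irak1, chrX:74015393-74015414, minus strand: gactcagaggtcaaAGTTCTCa
Irak1, chrX:74015377-74015398, minus strand: ttctcatgcttggaAGTTCTCa
Traf6, chr2:101697945-101697966, plus strand: ccgctctggtgttgAGTTCTCa
Traf6, chr2:101698009-101698030, plus strand: ccctggaaggcttaAGTTCTCa

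All 4 windows lie in 3′ untranslated regions by GENCODE vM21, and the *Irak1* windows overlap, since their matches begin 40 and 56 bases after the stop codon. The same 7 letters occurred 4 times in the 3′ region of *Traf6*, and 2 times each in those of *Irak1*, *Irak2* and *Tirap*. No match was found in the 3′ regions of *Myd88*, *Ticam1*, *Ticam2*, *Irak3*, *Irak4* and *Sarm1*. Of 15312 genes with a 3′ region searched, 1862 (12.2%) held at least 1 match, and longer regions have more room for a match (4170 bases in *Traf6*, 987 in *Myd88*). A match of letters is a description only, and miR-146a itself was not analysed here.

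*Myd88*, the gene named as deleted, was not low in the libraries labelled ft/ftMyD88-/-. Its level was 32.11, 36.48, 28.67 and 25.42 CPM (counts scaled to a common library size by the TMM method) in ft/ft replicates 1 to 4, and 38.83, 48.80, 32.15 and 44.94 CPM in replicates 1 to 4 labelled ft/ftMyD88-/-. The groups overlapped, since the third library labelled ft/ftMyD88-/- lay below ft/ft replicate 2. The means were 30.7 ± 4.74 CPM (SD, n = 4) and 41.2 ± 7.29 CPM (SD, n = 4), a 1.34-fold higher level with a log2 fold change of 0.42 (SE 0.142, 95% interval 0.12 to 0.73, edgeR quasi-likelihood adjusted p = 0.0484). This call stood close to the threshold, and when each of the 8 libraries was left out in turn it was kept in 2 of 8 fits, with log2 fold changes of 0.34 to 0.54 and adjusted p between 0.0127 and 0.136. Because the counts are summed over the whole gene, transcripts that retain part of *Myd88* were not told apart from intact ones. The protein was not measured here. By immunofluorescence of periocular skin, the study reports MyD88 protein in epidermal cells of ft/ft but not of ft/ftMyD88-/- mice.

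*Myd88* lies on chr9:119335934-119340018 (minus strand, RefSeq GRCm38.p6). Its exons share 11.3% of their bases with those of *Acaa1a*, a peroxisomal thiolase gene on the opposite strand. The study's methods give counting with HTSeq at default parameters, which use strand, and a library kit that does not mark strand. By that account, reads from the shared bases cannot be told apart. The sample labels name Cell Ranger and a protocol for fixed tissue, and which account the counts match was not examined. *Acaa1a* averaged 204.3 CPM in ft/ft and 188.2 CPM in the libraries labelled ft/ftMyD88-/- (log2 fold change -0.12, edgeR adjusted p = 0.334), a difference in the other direction that did not pass the test.

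The stretch just before the *Myd88* start is printed because it held motif letters that none of the other members with a promoter entry held. Capitals mark, first, an overlapping pair of TATAAA matches, 1 on each strand, at 164 to 155 bases before the RefSeq start and, second, a match to GAAANNGAAA, the core of an interferon-stimulated response element, at 40 to 31 bases before it.
Myd88, chr9:119340042-119340202, minus strand, RefSeq GRCm38.p6: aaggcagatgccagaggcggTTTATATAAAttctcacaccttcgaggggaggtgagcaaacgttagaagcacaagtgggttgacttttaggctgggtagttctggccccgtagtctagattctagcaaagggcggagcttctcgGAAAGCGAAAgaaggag

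Both strands of the 250 bases before each start were searched. Among 15399 promoters, 2.73% held GAAANNGAAA and 7.9% held TATAAA. Entries were found for 9 of the 10 members, all but *Ticam2*, and none of the 9 held the NF-kB consensus, which 4.8% of all promoters held. The absence of these letters from this window says nothing about the binding of a factor.

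Over the 10 members, 2 were higher in the libraries labelled ft/ftMyD88-/- (*Myd88* and *Irak3*), 1 was lower (*Irak1*) and 7 did not pass the test. Of all 20454 genes tested, 10.9% were called higher and 12.3% were called lower, so both counts lay within about 1 gene of the background share. The median log2 fold change was -0.12 over the members and 0.01 over all genes tested. The absolute log2 fold changes of the members ran from 0.03 to 0.51. The libraries held between 15802957 and 29255129 counts, and the members averaged between 19.9 (*Sarm1*) and 1765 (*Irak1*) counts a library.

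**Figure D1:**
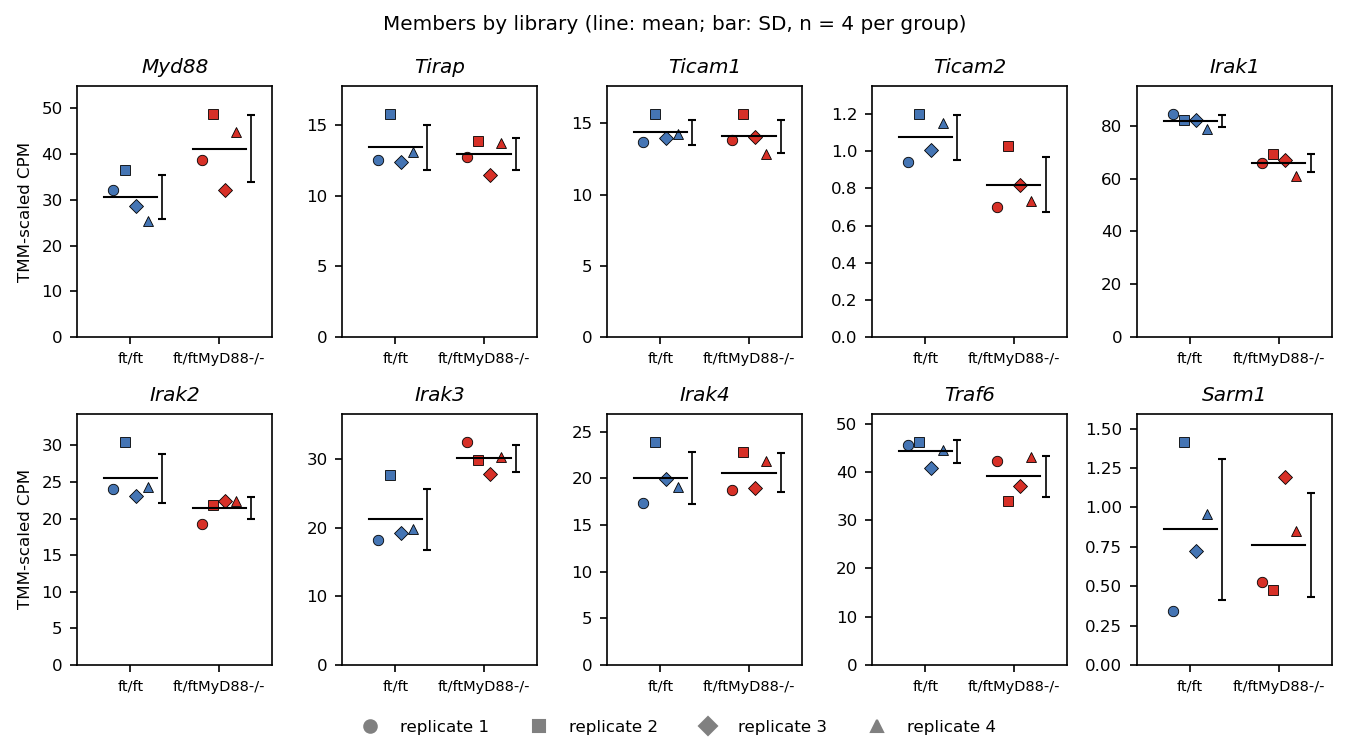
TMM-scaled CPM of the 10 members in each library, with ft/ft in blue and the libraries labelled ft/ftMyD88-/- in red, a line at the mean and a bar of 1 SD (n = 4 per group). *Irak1* and *Irak2* separate downward, *Irak2* without passing the test. *Irak3* separates upward by a margin of 27.75 against 27.83 CPM, while *Myd88* overlaps.

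**Figure D2:**
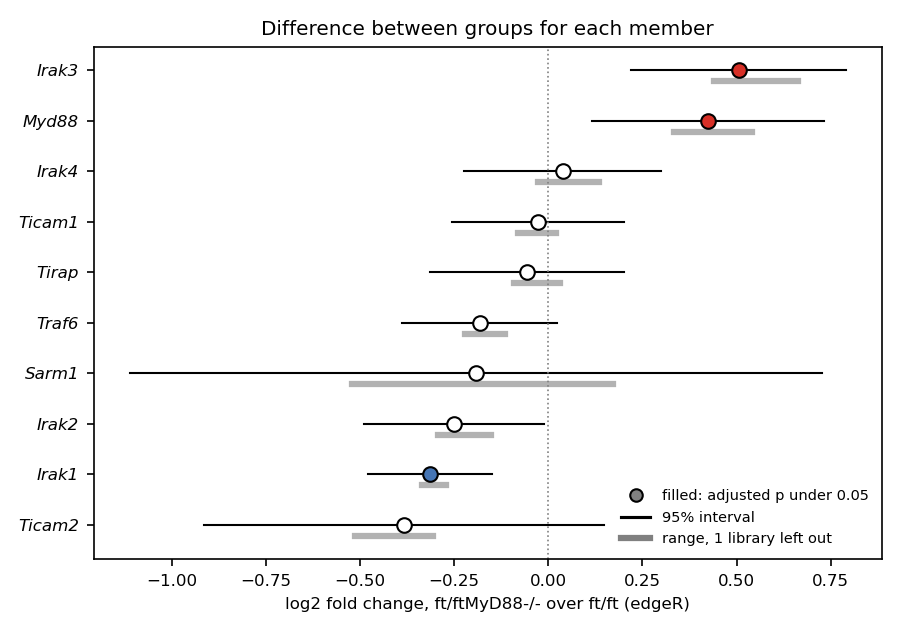
Log2 fold change of each member, libraries labelled ft/ftMyD88-/- over ft/ft, from edgeR with its 95% interval, and in grey the range when 1 library is left out. Filled points passed an adjusted p of 0.05, which were *Irak3* (0.51), *Myd88* (0.42) and *Irak1* (-0.31).

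The other adaptors were measured at levels that did not pass the test. *Tirap*, which brings MyD88 to TLR2 and TLR4 at the membrane, had 13.4 ± 1.59 CPM in ft/ft and 12.9 ± 1.10 CPM in the libraries labelled ft/ftMyD88-/- (SD, n = 4 each). Its log2 fold change was -0.06 (95% interval -0.31 to 0.20, edgeR adjusted p = 0.77), which bounds the fold between 0.804 and 1.15. *Ticam1*, the adaptor of TLR3, had 14.4 ± 0.875 and 14.1 ± 1.16 CPM (SD, n = 4 each), with a log2 fold change of -0.03 (95% interval -0.26 to 0.20, edgeR adjusted p = 0.876).

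*Ticam2* and *Sarm1* were rare. *Ticam2*, on chromosome 18, had 22, 33, 18 and 30 counts in ft/ft replicates 1 to 4 and 16, 28, 24 and 12 counts in those labelled ft/ftMyD88-/-, a log2 fold change of -0.38 (95% interval -0.91 to 0.15, edgeR adjusted p = 0.283). *Sarm1* had 8, 39, 13 and 25 counts against 12, 13, 35 and 14, a log2 fold change of -0.19 (95% interval -1.11 to 0.73, edgeR adjusted p = 0.78). The groups overlapped for both genes, and the interval of *Sarm1* allows folds from 0.463 to 1.66. The exons of *Ticam2* also share 14.5% of their bases with *Tmed7* on the same strand, so its few counts are uncertain.

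Among the kinases, *Irak1* was lower and *Irak3* higher in the libraries labelled ft/ftMyD88-/-. *Irak1*, which binds TRAF6 once phosphorylated by IRAK4, had 84.49, 82.05, 82.22 and 78.75 CPM in ft/ft replicates 1 to 4 and 65.95, 69.19, 67.20 and 60.98 CPM in those labelled ft/ftMyD88-/-. Every library labelled ft/ftMyD88-/- lay below every ft/ft library, with means of 81.9 ± 2.36 and 65.8 ± 3.50 CPM (SD, n = 4 each). The log2 fold change was -0.31 (SE 0.0762, 95% interval -0.48 to -0.15, edgeR adjusted p = 0.0113), a level 0.804 times that of ft/ft. The call was kept in 8 of 8 fits that left out a library, and it was lost when counts were scaled by library size alone (log2 fold change -0.14, edgeR adjusted p = 0.211).

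*Irak1* lies on the X chromosome (chrX:74013914-74023921), and transcripts that mark sex moved with the groups. *Xist*, the RNA that silences an X chromosome in female cells, had at most 1 count in the ft/ft libraries and averaged 49.4 ± 13.3 CPM (SD, n = 4) in those labelled ft/ftMyD88-/-. The Y-linked *Ddx3y* averaged 65.0 ± 8.97 CPM (SD, n = 4) in ft/ft and 0.147 ± 0.225 CPM (SD, n = 4) in the other group. The ft/ft libraries therefore go against their label as female, and for every member the MyD88 genotype and the sex shown by these transcripts cannot be told apart.

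*Irak3*, whose product restrains the IRAK complex in macrophages, had 18.22, 27.75, 19.19 and 19.78 CPM in ft/ft replicates 1 to 4 and 32.60, 29.99, 27.83 and 30.30 CPM in those labelled ft/ftMyD88-/-. The groups did not overlap, but ft/ft replicate 2 nearly reached the lowest library of the other group. The means were 21.2 ± 4.39 and 30.2 ± 1.95 CPM (SD, n = 4 each), a 1.42-fold higher level with a log2 fold change of 0.51 (SE 0.132, 95% interval 0.22 to 0.79, edgeR adjusted p = 0.0163). Without ft/ft replicate 2 the log2 fold change was 0.66 (edgeR adjusted p = 0.00153). The call was lost without ft/ft replicate 3 (edgeR adjusted p = 0.0507) and without ft/ft replicate 4 (edgeR adjusted p = 0.0527). The exons of *Irak3* share 5.98% of their bases with genes on the opposite strand, chiefly *Tmbim4*, which had a log2 fold change of -0.20 (edgeR adjusted p = 0.0836).

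*Irak2*, a kinase that sustains the response after IRAK1, had 24.05, 30.51, 23.15 and 24.31 CPM in ft/ft and 19.19, 21.83, 22.42 and 22.38 CPM in the libraries labelled ft/ftMyD88-/-. The groups did not overlap, yet the log2 fold change of -0.25 (95% interval -0.49 to -0.01) did not pass the test (edgeR adjusted p = 0.12). *Irak4*, the kinase that starts the cascade on MyD88, had 20.1 ± 2.80 and 20.6 ± 2.07 CPM (SD, n = 4 each) and a log2 fold change of 0.04 (95% interval -0.22 to 0.30, edgeR adjusted p = 0.85). Its exons share 7.87% of their bases with *Twf1*, an actin-regulator gene on the opposite strand that rose from 54.4 to 78.2 CPM (log2 fold change 0.52, edgeR adjusted p = 0.00869). In all, 3 of the 10 members (*Irak1*, *Irak2* and *Irak3*) had groups that did not overlap, against 26.7% of all genes tested.

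*Traf6*, the ligase that builds ubiquitin chains after the IRAK kinases, had 45.48, 46.26, 40.89 and 44.55 CPM in ft/ft and 42.29, 33.99, 37.05 and 42.99 CPM in the libraries labelled ft/ftMyD88-/-. The groups overlapped, and the log2 fold change of -0.18 (95% interval -0.39 to 0.02) did not pass the test (edgeR adjusted p = 0.185). Of the 4 members with letters that pair with the miR-146a seed, *Irak1* was called lower, and *Irak2*, *Traf6* and *Tirap* were not called.

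Per kilobase of exon, *Irak1* was the most abundant member in ft/ft at 17.36 ± 0.5003 CPM per kb and *Myd88* followed at 11.9 ± 1.84 CPM per kb (SD, n = 4 each), with no overlap over libraries. In the libraries labelled ft/ftMyD88-/- the order was turned, with *Myd88* at 15.99 ± 2.83 and *Irak1* at 13.96 ± 0.742 CPM per kb (SD, n = 4 each), but those ranges overlapped. In ft/ft, *Irak2* (5.78), *Irak3* (5.78), *Traf6* (5.62), *Ticam1* (4.80) and *Irak4* (4.00 CPM per kb) formed a middle group in which each overlapped with the next. In the libraries labelled ft/ftMyD88-/-, *Irak3* stood above the rest of that group at 8.21 ± 0.531 CPM per kb (SD, n = 4), clear of *Traf6* (4.96), *Irak2* (4.86), *Ticam1* (4.71) and *Irak4* (4.11). *Tirap* came eighth in both groups (2.73 and 2.63 CPM per kb), above *Ticam2* (0.186 and 0.142) and *Sarm1* (0.153 and 0.135), which overlapped with each other. Averaged over all libraries, *Irak1* exceeded 80.2% of 16091 tested genes with a known length and *Sarm1* exceeded 10.4%.

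**Figure D3:**
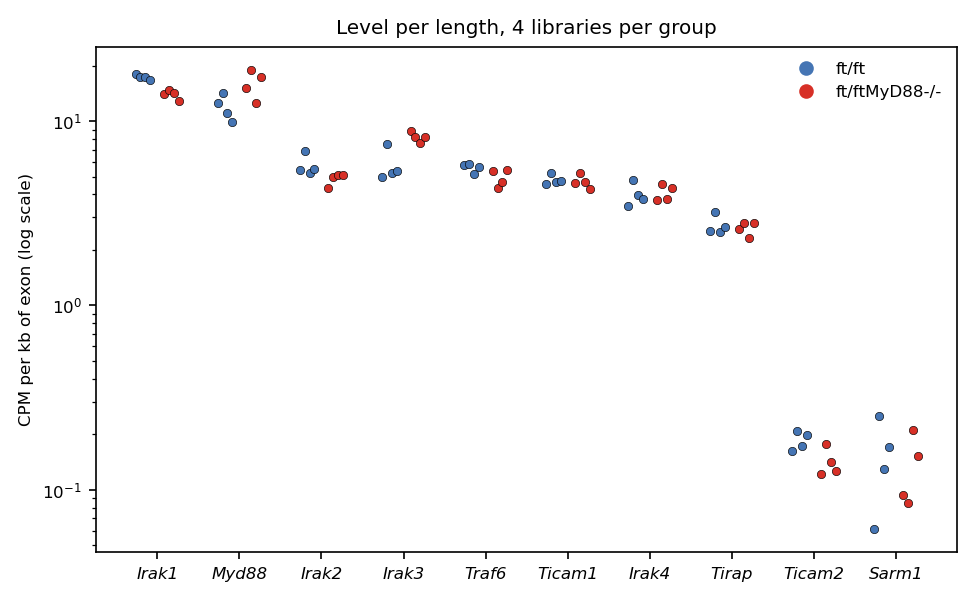
CPM per kb of exon on a log axis for each member, with 4 ft/ft libraries in blue and 4 labelled ft/ftMyD88-/- in red. *Irak1* and *Myd88* head the order at 11.9 to 17.4 CPM per kb in group means, and *Ticam2* and *Sarm1* lie below 0.2 CPM per kb in group means.

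Shares within a family and ratios within a library do not depend on how libraries were scaled to each other. Of all IRAK counts per kb, *Irak1* made up 56.4, 47.5, 54.7 and 53.2% in ft/ft and 45.2, 45.4, 46.5 and 42.2% in the libraries labelled ft/ftMyD88-/-. *Irak3* made up 15.6, 20.6, 16.4 and 17.1% against 28.7, 25.2, 24.7 and 26.9%. Neither share overlapped between the groups, and in each it was ft/ft replicate 2 that came nearest to the other group. Shares are parts of a whole, so a higher share of *Irak3* by itself lowers the others, and these are not separate results. How often such shares do not overlap over other genes was not computed. The share of *Irak2* went from 17.5 ± 1.02 to 15.6 ± 1.20% and that of *Irak4* from 12.1 ± 0.913 to 13.2 ± 1.14% (SD, n = 4 each), both with overlap.

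**Figure D4:**
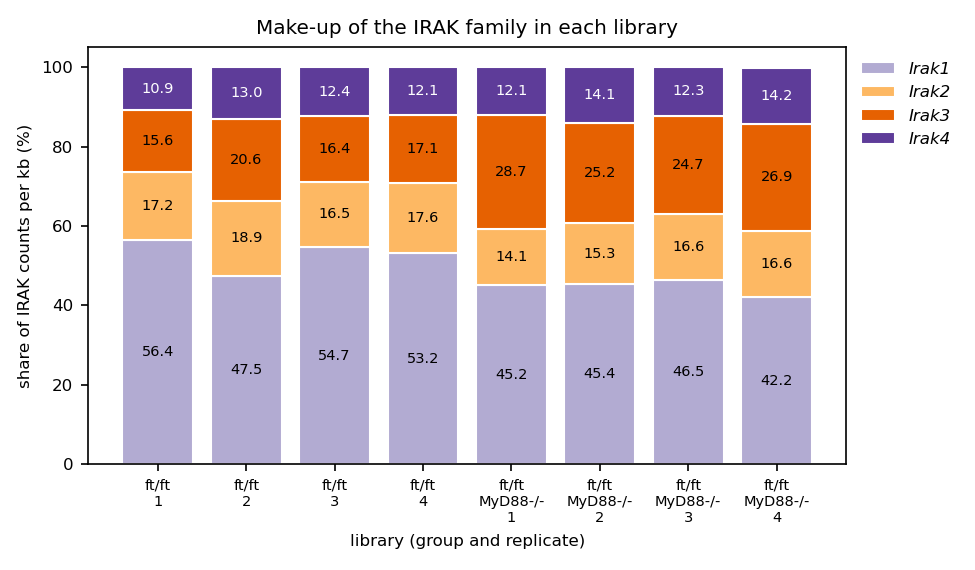
Share of each IRAK gene in the summed IRAK counts per kb, 1 bar a library with the percent printed in each block. *Irak3* takes 15.6 to 20.6% in ft/ft and 24.7 to 28.7% in the libraries labelled ft/ftMyD88-/-, while *Irak1* takes 47.5 to 56.4% and 42.2 to 46.5%.

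The ratio of *Irak3* to *Irak4* counts was 0.964 to 1.16 in ft/ft and 1.31 to 1.73 in the libraries labelled ft/ftMyD88-/-, without overlap. The ratios of *Irak1* (4.14 ± 0.592 and 3.22 ± 0.374), *Irak2* (1.27 ± 0.0923 and 1.05 ± 0.0981) and *Traf6* (2.24 ± 0.309 and 1.91 ± 0.316) to *Irak4* overlapped (SD, n = 4 each). Over all genes, 15.8% had a ratio to *Irak4* without overlap. Among the adaptors, the ratio of *Tirap* to *Myd88* was lower in the libraries labelled ft/ftMyD88-/-, with 0.390 to 0.514 counts per *Myd88* count in ft/ft and 0.284 to 0.357 in the other group, without overlap. *Ticam2* per *Myd88* count did not overlap either (0.0294 to 0.0452 and 0.0163 to 0.0254), whereas *Ticam1* and *Sarm1* did. The log2 fold change was 0.42 for *Myd88* and -0.06 for *Tirap*. These ratios share the *Myd88* counts as denominator, so they are not separate results. Of all genes, 21.1% had a ratio to *Myd88* without overlap. *Myd88* made up 60.0 ± 3.02% of adaptor counts per kb in ft/ft and 67.4 ± 3.34% in the other group (SD, n = 4 each), with overlap.

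Over the 8 libraries, the genes whose centred log2 CPM stayed closest to that of *Myd88* were *Gk*, *Kifc1*, *Kif20a*, *Stx11* and *Socs3*, with mean absolute differences of 0.0726, 0.0735, 0.0776, 0.0788 and 0.0859 among 13495 genes with a mean of at least 50 counts. *Gk* encodes glycerol kinase, *Kifc1* and *Kif20a* encode mitotic kinesins, *Stx11* encodes a syntaxin of immune cells, and *Socs3* encodes an inhibitor of cytokine signalling. *Socs3* had 27.2, 32.9, 28.8 and 22.6 CPM in ft/ft and 38.1, 49.0, 33.6 and 42.5 CPM in the libraries labelled ft/ftMyD88-/-. The nearest member was *Irak3*, at a mean absolute difference of 0.181 and rank 807, followed by *Irak4* at 0.22 and rank 2165.

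The other genes of the pathway were taken from 10 lists by role with 92 genes, of which 91 were tested. In all, 18 were higher (19.8%, against 10.9% of all genes), 8 were lower (8.79%, against 12.3%) and 65 were not called, with a median log2 fold change of 0.16 against 0.01 over all genes. Among the receptors that feed the adaptors, few TLR genes passed the test. Of 12 TLR genes, *Tlr13*, a sensor of bacterial ribosomal RNA, was higher (2.59 ± 1.29 to 6.54 ± 2.41 CPM, log2 fold change 1.32, edgeR adjusted p = 0.021), and *Tlr3*, a sensor of double-stranded RNA that signals through TRIF, was lower (10.5 ± 0.520 to 7.56 ± 0.486 CPM, log2 fold change -0.47, edgeR adjusted p = 0.0103). The other 10 TLR genes did not pass the test. The *Tlr13* groups overlapped, and its call was lost in 4 of 8 fits that left out a library (without ft/ft replicate 1, 3 or 4, or ft/ftMyD88-/- replicate 4, edgeR adjusted p between 0.0533 and 0.058). The *Tlr3* call was kept in all 8 of those fits but was lost with library size only (-0.29, edgeR adjusted p = 0.0736).

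The IL-1 receptor family changed in both directions, with 2 of 8 genes higher and 2 lower. The signalling receptor *Il1r1* was higher (log2 fold change 0.43, edgeR adjusted p = 0.0121), as was *Il18rap*, the accessory chain of the IL-18 receptor (1.05, edgeR adjusted p = 0.0191). The decoy receptor *Il1r2* was lower, from 66.8 ± 3.02 to 37.9 ± 4.80 CPM (-0.82, edgeR adjusted p = 0.000224), and so was *Il1rap*, the shared accessory chain (-0.59, edgeR adjusted p = 0.000786). Of 7 accessory proteins, *Lbp*, which delivers lipopolysaccharide to CD14, was higher (1.20, edgeR adjusted p = 0.0366) and *Cd36*, a lipid scavenger receptor that assists TLR2, was lower (-0.47, edgeR adjusted p = 0.0412). Of these, *Il1r1*, *Il1r2* and *Il1rap* were called in all 8 fits that left out a library, and *Il18rap* in 5 of 8. *Lbp* was called in the fits without ft/ftMyD88-/- replicate 2 (0.78) or 3 (1.36), and its edgeR adjusted p lay between 0.0547 and 0.0939 in the other 6. *Cd36* was called in 2 of the 8, those without ft/ft replicate 3 or ft/ftMyD88-/- replicate 3, and it was also lost with library size only (-0.29, edgeR adjusted p = 0.194).

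Downstream of TRAF6, 13 of 16 genes of the ubiquitin and kinase relay were not called. *Map3k8*, a kinase of the MAP kinase arm, was higher (8.46 ± 2.24 to 16.01 ± 1.27 CPM, log2 fold change 0.91, edgeR adjusted p = 0.00269). *Peli2*, a ubiquitin ligase that acts on IRAK1 (-0.53, edgeR adjusted p = 0.0166), and *Rbck1*, a subunit of the linear ubiquitin ligase (-0.38, edgeR adjusted p = 0.00593), were lower. In the TRIF branch, 2 of 10 genes were higher, the adaptor ligase *Traf3* (0.47, edgeR adjusted p = 0.00802) and the necroptosis kinase *Ripk3* (0.63, edgeR adjusted p = 0.0435), and none was lower. Of 6 TRAF relatives, *Traf1* (1.01, edgeR adjusted p = 0.000541) and *Traf2* (0.28, edgeR adjusted p = 0.0238) were higher and none was lower. *Map3k8*, *Traf3* and *Traf1* kept their calls whichever library was left out. *Ripk3* lost its call without ft/ft replicate 1, 3 or 4 or ft/ftMyD88-/- replicate 2 or 4 (edgeR adjusted p between 0.0837 and 0.129), and also with limma voom (adjusted p = 0.065) and robust = FALSE (adjusted p = 0.0528). *Traf2* lost it without ft/ft replicate 3 or 4 (edgeR adjusted p 0.0707 and 0.0728). *Peli2* lost it without ft/ft replicate 3, and with library size only neither *Peli2* (-0.35, edgeR adjusted p = 0.0959) nor *Rbck1* (-0.20, edgeR adjusted p = 0.0805) was called.

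Among 8 NF-kB subunits and inhibitors, *Rela*, the main activating subunit, was lower (73.5 ± 4.81 to 58.8 ± 2.19 CPM, log2 fold change -0.32, edgeR adjusted p = 0.0122) and the other 7 were not called. As with *Irak1*, the *Rela* call was lost with library size only (-0.15, edgeR adjusted p = 0.192). Brakes on the pathway also split, with *Socs1*, a suppressor of cytokine signalling (0.79, edgeR adjusted p = 0.00396), and the A20 gene *Tnfaip3* (0.56, edgeR adjusted p = 0.00768) higher and *Tollip*, which holds IRAK1 inactive, lower (181.4 ± 9.96 to 131.5 ± 2.41 CPM, -0.46, edgeR adjusted p = 0.0015), and 6 of 9 not called. Of 11 NF-kB target genes, 6 were higher and none was lower, with a median log2 fold change of 1.33. The neutrophil attractant *Cxcl1* went from 0.422 ± 0.372 to 5.32 ± 1.598 CPM (3.59, edgeR adjusted p = 0.000816), the cytokine *Il1b* from 3.802 ± 3.45 to 31.0 ± 12.5 CPM (3.00, edgeR adjusted p = 0.025) and the prostaglandin synthase *Ptgs2* from 1.98 ± 0.435 to 7.56 ± 3.68 CPM (1.93, edgeR adjusted p = 0.00335), SD with n = 4 each. The summed level of these targets was 286 CPM in ft/ft replicate 2 and at most 221 CPM in the other ft/ft libraries. Without that replicate the log2 fold change was 4.43 for *Cxcl1* and 3.84 for *Il1b*. The target *Nfkbiz* and the brake *Zc3h12a* were not called in the main fit (1.33 and 1.67, edgeR adjusted p = 0.133 and 0.118). With all libraries, both were called by DESeq2 (adjusted p = 0.045 and 0.0296) and limma voom (adjusted p = 0.0127 and 0.0087). They were also called with robust = FALSE (edgeR adjusted p = 0.0447 and 0.0352), but in no other fit of all libraries. Both were called without ft/ft replicate 2 (2.15 and 2.69, edgeR adjusted p = 2.32e-06 and 1.24e-05). In the same fit the target *Il6*, called in the main fit, lost its call (4.03, edgeR adjusted p = 0.107). *Il6* also lost it without ft/ft replicate 1, 3 or 4 (edgeR adjusted p = 0.103, 0.106 and 0.112). With limma voom it was not called either (adjusted p = 0.124). It averaged only 7.1 counts a library, so its call is uncertain. The *Il1b* call was lost without ft/ft replicate 1 or 3 or ft/ftMyD88-/- replicate 2 or 4 (edgeR adjusted p between 0.0508 and 0.0663). Of 4 tested genes of NAD metabolism and axon loss linked to *Sarm1*, 1 was higher and none was lower. Beside these targets, the member with the largest absolute log2 fold change, *Irak3*, was at 0.51.

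**Figure D5:**
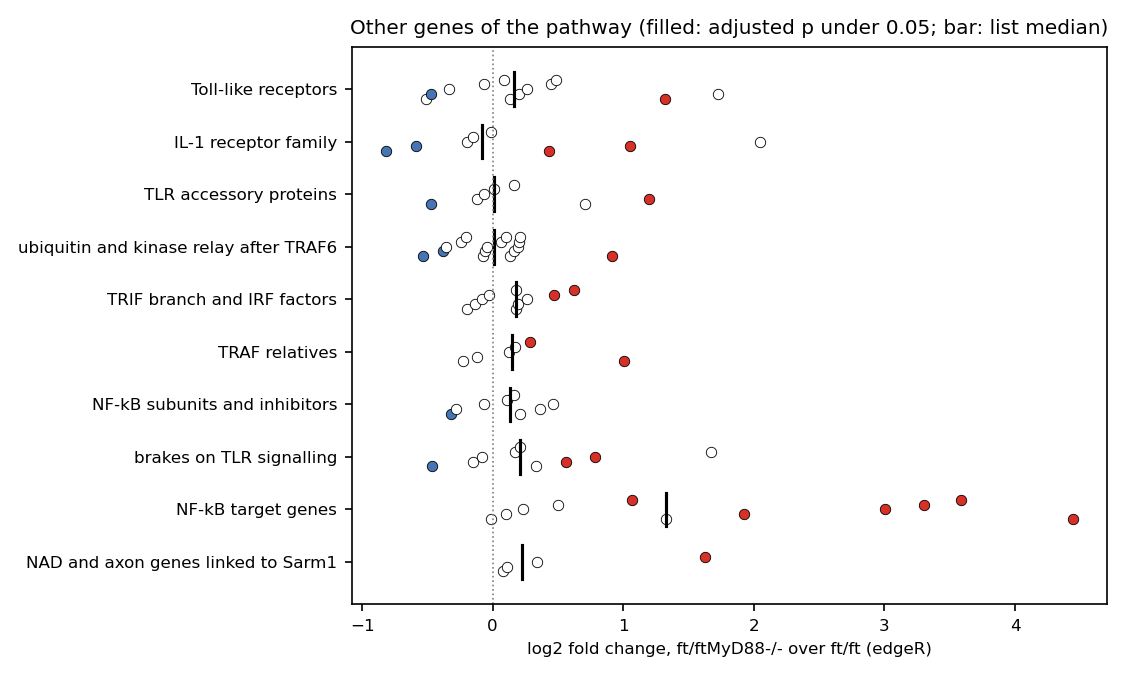
Log2 fold change (libraries labelled ft/ftMyD88-/- over ft/ft, edgeR) of each tested gene in the 10 pathway lists, filled where the adjusted p was under 0.05, with a bar at the list median. The NF-kB target genes sit highest, with a median of 1.33, while the medians of the other lists lie between -0.08 and 0.22.

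Levels of several cell type markers also differed between the groups, and in bulk tissue fewer cells of a type and less RNA per cell cannot be told apart. Summed T cell markers (7 genes, 6 higher) were 16.9 to 22.1 CPM in ft/ft and 29.2 to 38.0 CPM in the libraries labelled ft/ftMyD88-/-. Summed macrophage and monocyte markers were 481 to 619 and 668 to 932 CPM, but only *Lyz2* of those 8 genes was called higher, and the defining markers *Csf1r*, *Adgre1* and *Cd68* were not called (log2 fold changes -0.21, -0.03 and -0.11). Summed neutrophil markers (6 genes, 1 higher and 1 lower) were 33.4 to 269 and 402 to 960 CPM, and most of the higher sums came from *S100a8* and *S100a9*, alarmin genes that keratinocytes can also express. Neither was called (log2 fold changes 3.22 and 3.22, edgeR adjusted p = 0.126 and 0.123). The other 4 genes summed to 22.6 to 46.1 CPM in ft/ft and 22.7 to 41.0 CPM in the libraries labelled ft/ftMyD88-/-, a split made after the values were seen. Of these, *Csf3r* was higher (1.42, edgeR adjusted p = 0.0476), *Mpo* was lower (-2.80, edgeR adjusted p = 0.0195), and *Cxcr2* and *Elane* were not called. *S100a8* and *S100a9* together were at 222 CPM in ft/ft replicate 2 and at most 22.4 CPM in the other ft/ft libraries. Within ft/ft, that library was also the highest for every member except *Irak1*.

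The markers of structural tissue differed by list. Summed skeletal muscle markers (8 genes, 7 lower) went from 7860 to 10800 CPM in ft/ft to 3060 to 5880 CPM in the libraries labelled ft/ftMyD88-/-. Summed sebocyte markers (7 genes, 5 lower) were 19100 to 21500 and 11600 to 16900 CPM. Summed fibroblast markers were 8910 to 18900 and 4530 to 6350 CPM, and the collagen genes *Col1a1* (-1.60) and *Col1a2* (-1.49) were the 2 called lower, while *Pdgfra* (0.31), *Lum* (0.09), *Dpt* (0.39) and *Dcn* (-0.40) were not called. Keratinocyte markers (7 genes, 3 lower and 4 not called) were present in every library at 21300 to 27700 and 17600 to 21700 CPM with overlap. The part of these differences in the changes of *Irak1*, *Irak3* and *Myd88* was not tested.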

How the data were processed

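The authors mapped reads of periocular skin libraries to the GRCm38.p6 genome (HISAT, TopHat2), assigned them to genes by HTSeq at default parameters and deposited raw counts. Tool versions and the annotation release are not given in the sources used here. The study describes polyA-selected libraries, while the sample labels name total RNA, Cell Ranger and a protocol for fixed tissue, and which of them the counts match was not examined.

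Genes with at least 10 counts summed over 8 libraries (20454 of 21247) entered edgeR 4.0.16 in R 4.3.3 (TMM, glmQLFit with robust = TRUE, glmQLFTest, two-sided), with Benjamini-Hochberg adjustment over all of them at 0.05. The biological coefficient of variation was 0.182. A count of 0 allows up to 3 counts, or 0.102 to 0.183 CPM, which covers counting error only. Lengths, 3′ regions and exon overlaps came from GENCODE vM21, coordinates and promoters from RefSeq GRCm38.p6. Alternatives used limma 3.58.1 and DESeq2 1.42.0. The fit was also run on simulated data whose changes were larger than that of any member, so it says nothing about calling changes of their size.

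Members and lists were chosen with earlier results of these data known. Named pathway genes were, per list, up to 3 called genes in each direction with the largest changes and a mean of at least 50 counts. *Nfkbiz*, *Zc3h12a* and *Il6* were named besides, after their values were seen. Groups came from sample labels. The study gives the libraries as separate mice. Levels, shares, ratios and likeness to *Myd88* are descriptions without a test. The result of a further marker list is not reported here.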

Additional observations from a re-analysis of the deposited data

Results flagged for a closer look

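Among 36 groups of 4 values checked for a sample far from the others, 2 stood out, and chance alone would mark about 5% of groups. Both belong to ft/ft replicate 2. *Irak2* was at 30.51 CPM in that library and between 23.15 and 24.31 CPM in the other ft/ft libraries. *Irak3* was at 27.75 CPM there and between 18.22 and 19.78 CPM in the others. The same library was the highest of ft/ft for every member except *Irak1*, though only these 2 values were flagged. It also had the highest summed *S100a8* and *S100a9* level of its group, 222 CPM against at most 22.4 CPM. The part of this in both values was not tested.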

How the results depend on the processing

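The directions of *Myd88*, *Irak1*, *Irak2*, *Irak3*, *Ticam2* and *Traf6* were kept in all 16 alternative fits. *Irak1* was called in 15 of them, *Irak3* in 14 and *Myd88* in 8. The number of members called higher, 2 as reported, was 0 at an adjusted p under 0.01, 0 with a log2 fold change of at least 1, 1 with limma voom and 1 with robust = FALSE, and 0 to 2 when a library was left out. The number called lower, 1 as reported, was 0 at an adjusted p under 0.01, 0 with a log2 fold change of at least 1 and 0 with library size only. Pathway genes called higher, 18 as reported, numbered 9, 11 and 43 under those same settings, in that order, and 11 to 21 when a library was left out, the low of 11 coming without replicate 1 or 4 of ft/ft. Those called lower, 8 as reported, numbered 4, 0 and 3. The counts over all genes moved as well. With library size only, 4638 of 20454 genes were called higher and 1326 lower, against 2239 and 2525 as reported. Without ft/ft replicate 1 or 4, 1874 of 20210 and 1464 of 20216 genes were called higher. Counts over all genes at the stricter thresholds are not given here. Scaling by library size only moved the median log2 fold change of all genes from 0.01 to 0.19 and turned *Tirap* to 0.12 and *Ticam1* to 0.15. When a library was left out, uncalled members changed sign, over ranges of -0.0262 to 0.135 for *Irak4*, -0.0921 to 0.0312 for *Tirap*, -0.0795 to 0.0207 for *Ticam1* and -0.52 to 0.17 for *Sarm1*. Ratios without overlap, 3 as reported, numbered 3 to 5 when a library was left out, with 5 without ft/ftMyD88-/- replicate 3. Leaving out a library can only narrow a range, so this count could not fall and is no check of the 3. With longest transcripts as lengths, 6 of 10 members held their rank in ft/ft. Samples share replicate numbers, but the correlations of same-numbered samples' deviations were -0.349 to 0.0719, so they were not treated as pairs. With the replicate number as a block, 2 members were called higher and 1 lower (*Irak1*, log2 fold change -0.32, edgeR adjusted p = 0.0357), with 18 and 7 pathway genes. Of all 20454 genes tested, 1895 were then called higher and 2144 lower. *Cd36* and *Traf2* were among the pathway genes not called with the block (edgeR adjusted p = 0.0786 and 0.0673). The cause of these shifts was not tested. Depth limits *Ticam2* and *Sarm1*, which averaged 22.9 and 19.9 counts a library.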
